A study of Mus musculus with 6 samples.

Results

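This account covers 10 genes that mark myeloid cells and neutrophils: the alarmin genes S100a8 and S100a9, the granule genes Mpo, Elane, Prtn3, Ctsg, Lyz2, Ngp and Camp, and the receptor gene Csf1r. They were taken by symbol, and all 10 were found among the 13185 gene rows of the deposited table. The cells were Notch1 T-ALL cells of the mouse, a T cell leukaemia that the labels call oncogenic lymphocytes. Cells of 3 libraries were given 25 nM panobinostat, an inhibitor of histone deacetylases, for 2 h, and cells of 3 libraries were left untreated. All were stimulated as T cells, by 2.5 ug/mL of plate-bound antibody to CD3 and 100 U/mL of IL-2. Sequencing read the 3′ end of each polyadenylated transcript, so levels were not divided by transcript length. The labels name no mouse strain, age, tissue of origin or clone, and do not state whether the libraries were separate cultures. Every p-value below thus rests on the spread between libraries alone, and that spread may be technical.

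Neutrophils store antimicrobial proteins in granules that are filled in successive stages of their development in the bone marrow, and most granule genes are transcribed in precursors rather than in the mature cell. Primary granules carry myeloperoxidase and serine proteases, and secondary granules, made later, carry cathelicidin and related proteins. The transcription factors PU.1, encoded by Spi1, and the C/EBP family drive many of these genes. S100A8 and S100A9 pair to form calprotectin, which fills the cytosol of neutrophils and monocytes, and Csf1r is the receptor by which monocytes and macrophages sense CSF1 and IL-34.

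Values were log2 CPM (counts per 1000000 counted reads), and the changes below are log2 fold changes of panobinostat over untreated libraries with their standard error (SE). A change was called when its Benjamini-Hochberg adjusted p from limma, taken over all 12554 tested genes, was under 0.05. By the steps between tied low values, 1 CPM stood for between 6.02 and 7.74 reads, or about 6020000 to 7740000 reads per library. On the first principal component (54.7% of the variance) panobinostat libraries stood at 35.4 to 43.2, against -25.7 in untreated library 1, -48.0 in untreated library 2 and -41.0 in untreated library 3.

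The 10 genes together held 1259, 1349 and 1233 CPM in panobinostat libraries 1 to 3, against 1530.2, 1681 and 1701 CPM in untreated libraries 1 to 3. Every treated sum was below every untreated sum. S100a8 and S100a9 made up between 77.9% and 78.1% of that sum in panobinostat libraries and between 76.1% and 77.6% in untreated libraries. Of the 10 genes 5 fell, 0 rose and 5 were not called, while 19.0% of all tested genes fell, 19.2% rose and 38.3% were called either way. Without adjustment over genes, 5 of the 10 were lower and 0 were higher at a limma p under 0.05. In the same 5 genes all treated values lay below all untreated values, which held for 25.7% of tested genes, and 51.4% had no overlap in either direction. Of the 6 genes at or above the median level of tested genes (4.16 log2 CPM) 4 fell, where 22.9% of tested genes at such levels fell and 23.8% rose. Of the 4 below it 1 fell, where 15.2% of tested genes fell and 14.7% rose. The median change of the 10 genes was -0.31, and that of all tested genes was -0.01. These libraries are bulk samples, in which fewer cells of a type and less RNA per cell cannot be told apart.

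**Figure D1:**
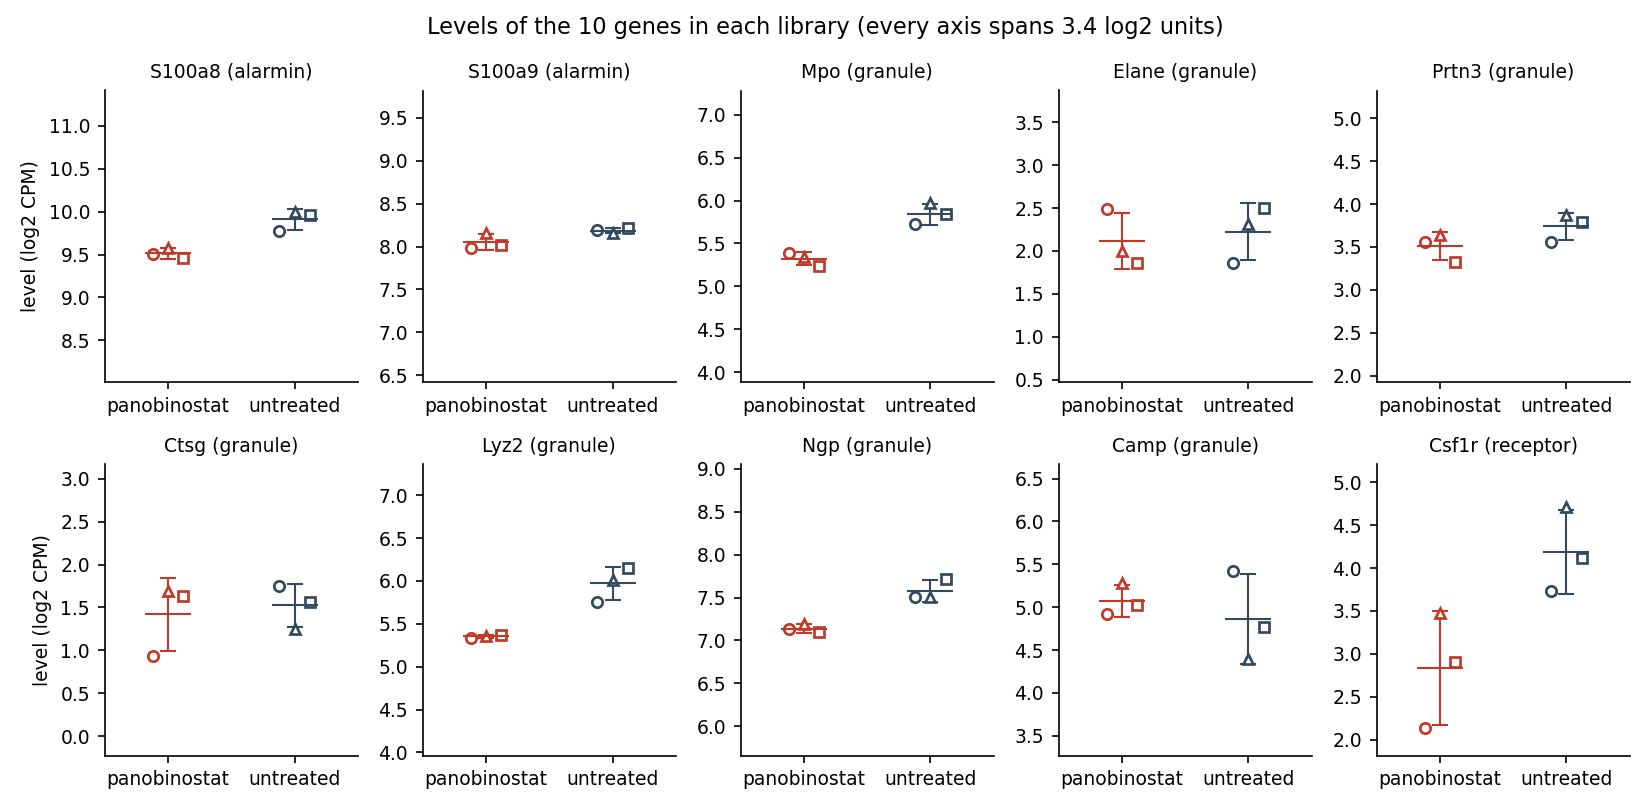
Level in log2 CPM of each of the 10 genes, with panobinostat libraries on the left and untreated libraries on the right of each panel. Circles, triangles and squares are libraries 1, 2 and 3, the wide line is the mean and the bars are 1 SD (n = 3); S100a8, Mpo, Lyz2, Ngp and Csf1r show no overlap between the groups.

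S100a8, which encodes a subunit of calprotectin, ranked 142 of 13185 rows by mean level. It stood at 730.2, 766 and 702 CPM in panobinostat libraries 1 to 3, against 874, 1019 and 999 CPM in untreated libraries 1 to 3. All treated libraries lay below all untreated ones, and the gene fell by 23.9% (log2 fold change -0.39, SE 0.08, limma adjusted p = 0.00803). On the log2 scale this was 9.52 ± 0.06 in panobinostat and 9.91 ± 0.12 in untreated libraries (SD, n = 3 each).

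S100a9, its partner, ranked 520 of 13185 and overlapped between the groups. It had 252, 286 and 259 CPM in panobinostat libraries, against 293, 285 and 297 CPM in untreated libraries. Panobinostat library 2 reached the level of untreated library 2. Its change was not called (log2 fold change -0.14, 95% confidence interval -0.31 to 0.03, limma adjusted p = 0.181).

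The genes of both subunits lie next to each other on chromosome 3 in GENCODE M21 (build GRCm38, the assembly of mm10), S100a8 at 90668978 to 90670035 on the plus strand and S100a9 at 90692632 to 90695721 on the minus strand, with 22596 bases and 0 annotated genes between them. S100a8 exceeded S100a9 by 1.53, 1.42 and 1.44 log2 units within panobinostat libraries 1 to 3, against 1.58, 1.84 and 1.75 within untreated libraries 1 to 3. The treated differences were all smaller, by 0.26 on average. That gave p = 0.1 in a two-sided exact permutation test, the smallest p that 3 against 3 libraries allow, and 0.3 after adjustment over 3 such gene pairs, which were chosen after their values had been seen.

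The windows from 250 bases before to 50 after the start site of both genes, from RefSeq on build GRCm38.p6, are shown because the genes are neighbours whose products form 1 complex. They are written 5′ to 3′ on the gene's strand, chr3:90668821-90669120 (plus) for S100a8 and chr3:90695672-90695971 (minus) for S100a9. The start sites are those of RefSeq. Those of S100a8 and, below, of Mpo, Elane, Ngp, Camp, Lyz2 and, by the widest margin, Prtn3 lie within the GENCODE gene. Capitals mark every match, on either strand, to GAGGAA, the core that PU.1 binds, or to TTNNGNAA, a relaxed form of the C/EBP site.
S100a8: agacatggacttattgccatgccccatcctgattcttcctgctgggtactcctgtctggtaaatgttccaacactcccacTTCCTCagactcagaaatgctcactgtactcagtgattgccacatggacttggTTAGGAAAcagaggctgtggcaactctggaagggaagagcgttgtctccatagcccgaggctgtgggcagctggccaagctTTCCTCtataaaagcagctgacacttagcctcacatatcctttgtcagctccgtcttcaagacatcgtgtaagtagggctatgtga
S100a9: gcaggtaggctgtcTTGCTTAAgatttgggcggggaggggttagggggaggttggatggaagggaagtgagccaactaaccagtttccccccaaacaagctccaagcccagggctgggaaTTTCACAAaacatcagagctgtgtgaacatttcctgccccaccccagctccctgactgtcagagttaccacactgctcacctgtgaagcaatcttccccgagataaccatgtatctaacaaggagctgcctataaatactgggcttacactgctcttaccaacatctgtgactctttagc
S100a8 held both kinds of match, and S100a9 held C/EBP-type matches only. A TATA box sequence (TATAAA) began at position -30 from the S100a8 start site, directly after a GAGGAA match on the opposite strand at position -36. In S100a9 TATAAA began at the start site itself, position 1. Over all 32851 RefSeq windows of the same length, 28.3% held GAGGAA, 40.7% held TTNNGNAA and 13.6% held TATAAA. These are matches of letters, and nothing about binding was measured.

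Mpo encodes myeloperoxidase, an enzyme stored in primary granules that makes hypochlorous acid. It stood at 42.0, 40.6 and 37.7 CPM in panobinostat libraries 1 to 3, against 52.8, 62.6 and 57.2 CPM in untreated libraries 1 to 3. The groups did not overlap, and Mpo fell by 30.2% (log2 fold change -0.52, SE 0.10, limma adjusted p = 0.00584). Mpo lies on chromosome 11 at 87793581 to 87804413, and it is overlapped by the antisense gene Gm11505, which was not analysed here.

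The serine proteases stored with it did not pass the test. Prtn3, which encodes proteinase 3, had 11.8, 12.5 and 10.01 CPM in panobinostat libraries, against 11.8, 14.6 and 13.8 CPM in untreated libraries. Panobinostat library 1 and untreated library 1 held the same value, and the change was -0.23 (SE 0.15, limma adjusted p = 0.263). Prtn3 overlaps Plppr3, which lies on the opposite strand and had mean levels of -0.37 log2 CPM in panobinostat and -0.80 in untreated libraries, under the filter.

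Elane, the gene of neutrophil elastase, had 5.62, 4.0 and 3.64 CPM in panobinostat libraries, against 3.61, 4.99 and 5.64 CPM in untreated libraries. The groups covered nearly the same range (log2 fold change -0.10, SE 0.26, limma adjusted p = 0.777). Ctsg, the gene of cathepsin G on chromosome 14, was the lowest of the 10, with 1.9, 3.23 and 3.11 CPM in panobinostat libraries and 3.37, 2.39 and 2.96 CPM in untreated libraries. It too overlapped (log2 fold change -0.11, SE 0.30, limma adjusted p = 0.803).

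Elane rested on about 27 to 37 reads per library and Ctsg on about 11 to 26, as estimated from the depth above. Their 95% confidence intervals, -0.71 to 0.50 for Elane and -0.80 to 0.59 for Ctsg, include changes of the size seen for Mpo. A fall like that of Mpo was thus not excluded in either gene. Prtn3, with about 71 to 98 reads, had an interval of -0.58 to 0.12 that includes it too. The estimate for Elane was positive without panobinostat library 3 (0.02) or untreated library 3 (0.03), and that for Ctsg without panobinostat library 1 (0.14) or untreated library 1 (0.01).

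Prtn3 (79874476 to 79883174) and Elane (79886247 to 79888215) are neighbours on the plus strand of chromosome 10, with 3072 bases and 0 genes between them. Prtn3 exceeded Elane by 1.07, 1.64 and 1.46 log2 units within panobinostat libraries, against 1.71, 1.55 and 1.29 within untreated libraries, with overlap (exact permutation p = 0.6, two-sided, also 0.6 when adjusted). Their windows are printed with that of Mpo because the 3 genes serve the same granule and each holds GAGGAA but no TTNNGNAA match. That of Ctsg, not printed, likewise held GAGGAA (at position -216) and no TTNNGNAA. The coordinates are chr11:87793534-87793833 for Mpo, chr10:79879417-79879716 for Prtn3 and chr10:79886062-79886361 for Elane, all on the plus strand of GRCm38.p6, with capitals marking GAGGAA.
Mpo: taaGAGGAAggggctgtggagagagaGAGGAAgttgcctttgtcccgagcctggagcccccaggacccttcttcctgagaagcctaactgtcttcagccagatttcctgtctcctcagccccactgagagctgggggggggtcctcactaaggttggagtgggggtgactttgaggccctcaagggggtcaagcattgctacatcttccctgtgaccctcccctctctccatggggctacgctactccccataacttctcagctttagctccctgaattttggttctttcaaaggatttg
Prtn3: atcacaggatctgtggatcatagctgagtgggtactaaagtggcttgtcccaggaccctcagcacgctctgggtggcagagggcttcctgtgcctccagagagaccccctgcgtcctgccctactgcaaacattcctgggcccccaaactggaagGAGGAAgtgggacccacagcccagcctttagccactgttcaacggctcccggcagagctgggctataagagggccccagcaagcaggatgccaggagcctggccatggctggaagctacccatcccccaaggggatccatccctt
Elane: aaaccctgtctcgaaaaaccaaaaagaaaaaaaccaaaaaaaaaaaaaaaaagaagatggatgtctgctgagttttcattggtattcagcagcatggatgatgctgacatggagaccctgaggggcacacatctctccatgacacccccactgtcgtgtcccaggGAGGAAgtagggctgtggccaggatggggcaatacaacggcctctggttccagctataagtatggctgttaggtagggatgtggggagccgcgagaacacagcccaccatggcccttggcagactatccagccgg
The match began at position -95 from the start site in Prtn3 and at position -85 in Elane, in the gene's orientation. Mpo held 2 matches farther out, at positions -247 and -224. Over the 9 windows examined, all but that of Csf1r, 5 held GAGGAA, 4 held TTNNGNAA and 3 held TATAAA. The shares over all RefSeq windows were 28.3%, 40.7% and 13.6%, in the same order. Of the 3 TATAAA matches, that of Ctsg lay on the opposite strand at position -237, and that of S100a9 at position 1.

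Among later granule genes, Ngp, the cystatin-related neutrophilic granule protein, was the most abundant. It had 139.9, 146 and 136 CPM in panobinostat libraries 1 to 3, against 182, 181 and 211 CPM in untreated libraries 1 to 3. The groups did not overlap, and Ngp fell by 26.2% (log2 fold change -0.44, SE 0.08, limma adjusted p = 0.00585). It lies on chromosome 9 at 110419747 to 110423012.

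Camp, the gene of the cathelicidin precursor, lies on the same chromosome at 109847379 to 109849617. It had 30.3, 38.9 and 32.6 CPM in panobinostat libraries, against 42.8, 21.0 and 27.3 CPM in untreated libraries. Untreated library 1 was the highest of all 6, untreated libraries 2 and 3 the lowest, and the change was not called (log2 fold change 0.22, SE 0.24, limma adjusted p = 0.514). Camp was the only one of the 10 with a positive estimate, which was -0.02 without untreated library 2 and a called 0.49 (adjusted p = 0.0435) without untreated library 1. Ngp exceeded Camp by 2.21, 1.91 and 2.07 log2 units within panobinostat libraries, against 2.09, 3.11 and 2.95 within untreated libraries, with overlap (exact permutation p = 0.2, two-sided, adjusted 0.3).

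The window of Ngp is shown because it held 3 TTNNGNAA matches, the most among the 9, while that of Camp held 0 matches of either kind. It is chr9:110419558-110419857 on the plus strand of GRCm38.p6.
Ngp: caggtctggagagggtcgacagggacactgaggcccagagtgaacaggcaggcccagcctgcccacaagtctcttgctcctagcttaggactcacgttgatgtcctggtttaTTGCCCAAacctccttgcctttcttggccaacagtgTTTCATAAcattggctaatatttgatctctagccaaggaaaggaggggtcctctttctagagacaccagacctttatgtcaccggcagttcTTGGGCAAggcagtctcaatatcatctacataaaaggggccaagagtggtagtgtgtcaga
The matches began at positions -138, -102 and -11 from the start site.

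Lyz2 encodes lysozyme M, which cleaves bacterial cell walls and is made by macrophages as well as neutrophils. It stood at 40.4, 41.0 and 41.4 CPM in panobinostat libraries, against 54.1, 64.2 and 70.9 CPM in untreated libraries. The treated libraries lay close together and below all untreated ones, and Lyz2 fell by 34.7% (log2 fold change -0.62, SE 0.11, limma adjusted p = 0.00487). Its near-identical neighbour Lyz1 was near the floor (log2 fold change -0.35, SE 0.49, adjusted p in limma = 0.598), and how reads were split between the copies is uncertain.

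Csf1r, the receptor gene on chromosome 18, gave the largest estimate of the 10. It had 4.41, 11.1 and 7.47 CPM in panobinostat libraries 1 to 3, against 13.3, 26.1 and 17.4 CPM in untreated libraries 1 to 3. All treated libraries lay below all untreated ones, although panobinostat library 2 came close to untreated library 1. Csf1r fell by 60.8% (log2 fold change -1.35, SE 0.36, 95% confidence interval -2.19 to -0.51, limma adjusted p = 0.0217).

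The spread of Csf1r within groups was wide, at 0.67 log2 units in panobinostat and 0.49 in untreated libraries (SD, n = 3 each). Panobinostat library 1 held about 27 reads. The call was lost without panobinostat library 1 (log2 fold change -1.0, adjusted p = 0.0508), panobinostat library 3 (-1.38, 0.054), untreated library 2 (-1.09, 0.0674) or untreated library 3 (-1.38, 0.0598), while the direction held. Csf1r overlaps Hmgxb3 on the opposite strand, which rose (log2 fold change 0.33, SE 0.11, adjusted p in limma = 0.0477), and without a stated strand setting reads of the pair cannot be told apart.

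**Figure D2:**
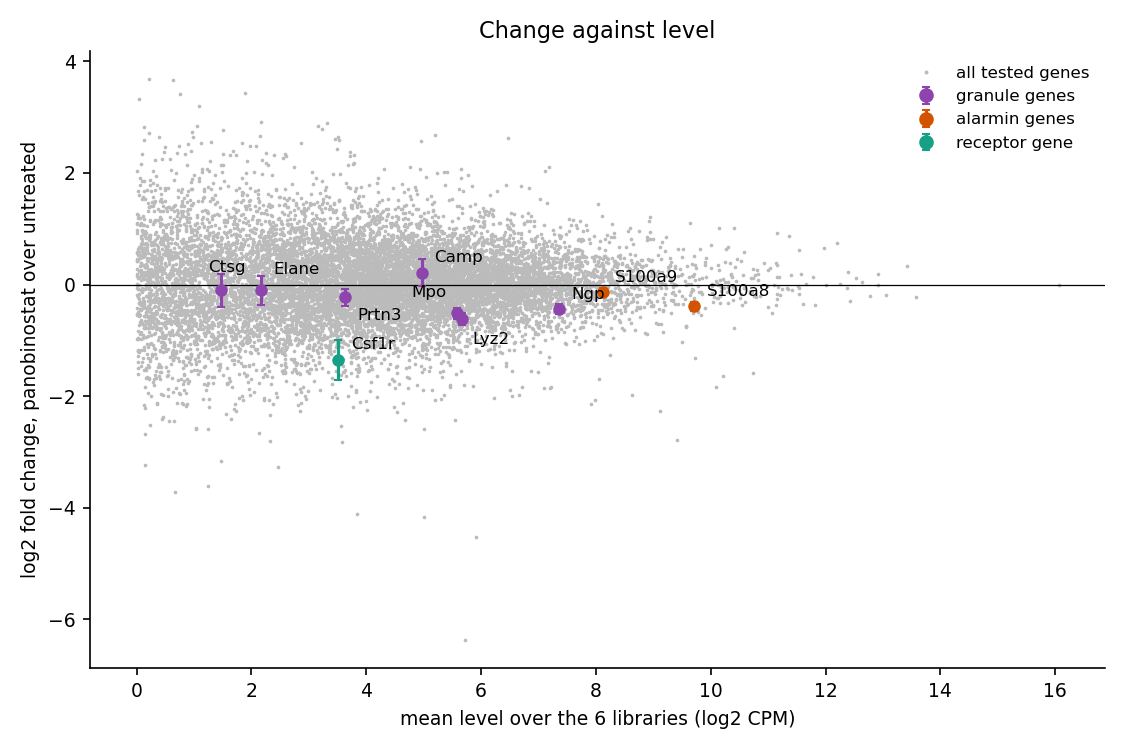
Log2 fold change of panobinostat over untreated libraries against the mean level over the 6 libraries in log2 CPM, with all 12554 tested genes in grey and the 10 genes in colour by class with SE bars. Csf1r, at -1.35, lies below the granule and alarmin genes, which lie between -0.62 and 0.22.

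Set against the receptor gene, the 9 granule and alarmin genes had estimates nearer 0, with 4 that fell and a median of -0.23. Their median level exceeded that of Csf1r by 3.19, 1.87 and 2.33 log2 units within panobinostat libraries 1 to 3, against 1.98, 1.26 and 1.72 within untreated libraries 1 to 3. The gap was wider by 0.81 in panobinostat libraries, yet the groups overlapped, since panobinostat library 2 lay below untreated library 1. No test was made of this score. A single receptor gene stands for its class here.

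**Figure D3:**
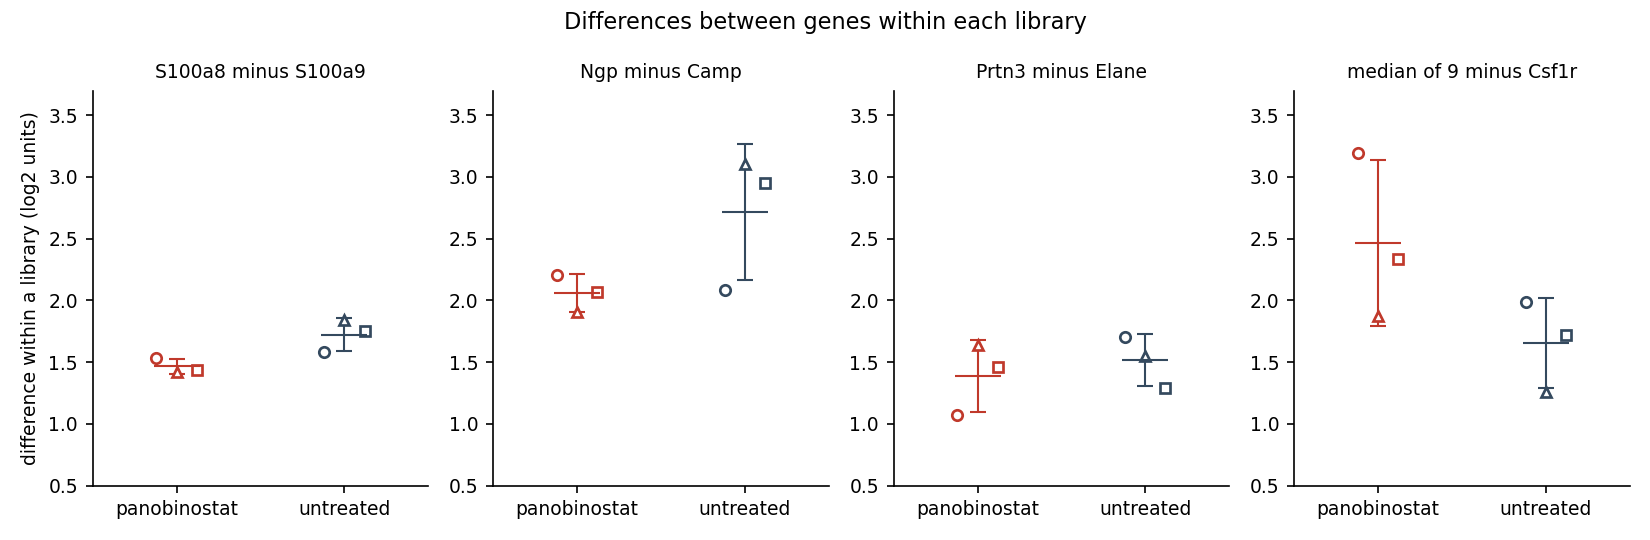
Differences in log2 units within each library for 3 pairs of genes and for the median of the 9 granule and alarmin genes minus Csf1r, panobinostat left and untreated right. Symbols are libraries 1 to 3 (circle, triangle, square), with mean and SD (n = 3); of the 4 panels only S100a8 minus S100a9 shows no overlap.

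Across the 6 libraries, S100a8 followed Mpo (Pearson r = 0.979), Lyz2 (0.969) and Ngp (0.935) more closely than its partner S100a9 (0.775), and ran against Camp (-0.54). Elane and Ctsg, both near the floor, had r = -0.73. These are descriptions over 6 libraries that share treatment and normalization. Among 10535 tested genes with established names, those most like S100a8 were Dok2 (r = 0.999), Gsk3a and Pbx2 (both 0.998), and those most like Csf1r were Fam229b (0.99), Epop (0.989) and Ankmy2 (0.988). For Mpo they were Bhlhb9 (0.999), Gpatch4 and Alyref (both 0.998), for Lyz2 Eme1 (0.9996), Prmt7 (0.999) and Bak1 (0.998), and for Ngp Gnl3l, Zmym2 (both 0.998) and Zfp335 (0.996). For S100a9 they were Fam49b (0.993), Acp5 (0.989) and Gpr146 (0.985), and for Prtn3 Sytl3 (0.994), Srm (0.993) and Faf1 (0.989). For Elane they were Atp6v0a1 (0.979), Ift81 (0.975) and Xk (0.962), for Ctsg Dnmt1 (0.993), Rcor3 (0.976) and Sgms2 (0.975), and for Camp H2afz (0.977), Gpbp1 and H2-Q7 (both 0.976). Of these 30 genes 0 were in the marker lists used here. No list had more than 21 tested genes, a small part of the 10535 searched, so this count says little.

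Other granule genes of neutrophils had mostly negative estimates. Of 26 listed 18 were tested, of which 17 had a negative estimate, 4 fell and 1 rose, with a median change of -0.33. Over all 12554 tested genes 6324 had a negative estimate and 19.0% fell, so the share of this list that fell was near the background. Their summed level overlapped between the groups, at 220.2 to 228 CPM in panobinostat and 207 to 236 CPM in untreated libraries. Of that sum Cstb alone held 88.1 to 94.7 CPM in panobinostat libraries and 26.7 to 50.6 CPM in untreated libraries. The overlap of the sums thus does not describe the other genes of the list. The gelatinase gene Mmp9 fell most, at 2.58, 2.72 and 3.02 log2 CPM in panobinostat libraries, against 3.78, 3.97 and 4.12 in untreated libraries (log2 fold change -1.18, SE 0.17, limma adjusted p = 0.00205). Falls were also called for the haptoglobin gene Hp (-0.90, SE 0.21), the chitinase-like gene Chil3 (-0.50, SE 0.11) and the NADPH oxidase gene Cybb (-0.48, SE 0.13). The Cybb call was lost without panobinostat library 1 (-0.44), panobinostat library 3 (-0.44) or untreated library 3 (-0.38). Lactoferrin, encoded by Ltf, stood at -0.44 (SE 0.20, adjusted p = 0.117), and was called without untreated library 1 (-0.62). Lcn2, a secondary granule protein that binds bacterial siderophores, stood at -0.25 (SE 0.26), and ran from -0.52 without untreated library 1 to -0.03 without untreated library 3. The one rise was that of Cstb (1.40, SE 0.22), a cysteine protease inhibitor that many cell types make.

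Relatives of the alarmin genes changed in both directions. Of 15 listed 7 were tested, of which 1 rose and 3 fell, where 19.2% of all tested genes rose and 19.0% fell. S100a4 fell (-0.88, SE 0.18, limma adjusted p = 0.00735), as did S100a6 (-0.62, SE 0.17) and S100a11 (-0.76, SE 0.25), and S100a10, a partner of annexin A2, rose (0.92, SE 0.27). Only the S100a4 call was kept with every library left out in turn, and it was the 1 call left without panobinostat library 3, untreated library 2 or untreated library 3. S100a6 was also lost without panobinostat library 2, S100a10 without untreated library 1 and S100a11 without panobinostat library 1. In these fits S100a6 lay between -0.77 and -0.48, S100a10 between 0.65 and 1.10 and S100a11 between -0.93 and -0.51. S100a13 (-0.31, SE 0.15) and S100pbp (-0.01, SE 0.07), which encodes a binding partner and is no S100 protein itself, were not called.

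Surface receptors of myeloid cells beyond Csf1r fell or were not called. Of 37 listed, 11 were not analysed here and 5 had values under the filter. Of 21 tested 5 fell and 0 rose in limma (7 lower and 0 higher at an unadjusted p under 0.05), with a median change of -0.38. Over all tested genes 19.0% fell and 19.2% rose, so the share of this list that fell was near the background. Csf2rb, the shared beta chain of the GM-CSF, IL-3 and IL-5 receptors, stood at 3.05, 3.72 and 3.27 log2 CPM in panobinostat libraries, against 4.48, 4.76 and 4.38 in untreated libraries (log2 fold change -1.20, SE 0.20, adjusted p in limma = 0.00322). The fractalkine receptor gene Cx3cr1 (-1.44, SE 0.28), the formyl peptide receptor gene Fpr2 (-1.37, SE 0.33), the Fc receptor gene Fcgr4 (-0.98, SE 0.25) and the C-type lectin gene Clec4e (-0.98, SE 0.29) fell as well. Without panobinostat library 3 or untreated library 3 the list held 3 calls. Csf2rb and Cx3cr1 were called with every library left out in turn, whereas Fpr2 was lost without untreated library 3 (-1.24), Fcgr4 without panobinostat library 3, untreated library 2 or untreated library 3, and Clec4e without panobinostat library 2 or 3 or untreated library 1 or 2. Over the fits with a library left out, Fcgr4 lay between -1.21 and -0.84 and Clec4e between -1.17 and -0.81. Not called were Sirpa (0.21, SE 0.13), Mertk (-0.25, SE 0.19), Fcgr3 (-0.38, SE 0.18) and Fcer1g (-0.41, SE 0.35, called at -0.80 without untreated library 1 and at -0.09, not called, without untreated library 2).

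Several defining receptors were near the floor of the data. Ly6g, the neutrophil surface marker, had between 0.27 and 0.71 log2 CPM in panobinostat libraries and between 0.38 and 1.15 in untreated libraries. Itgam, which encodes CD11b, had between 1.31 and 1.42 in panobinostat and between 1.7 and 2.45 in untreated libraries (log2 fold change -0.62, SE 0.26, limma adjusted p = 0.0967). Adgre1, which encodes F4/80, had between -0.74 and 0.93 in panobinostat and between -0.79 and 0.51 in untreated libraries. Cxcr2, the neutrophil chemokine receptor gene, was under the filter, at -1.95 to 1.04 in panobinostat and -2.20 to 0.80 in untreated libraries. Csf3r and Cd14 were not analysed here.

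Genes of monocytes and macrophages gave the lowest median of the myeloid lists, -0.46, with 1 that rose and 6 that fell of 21 tested. Among all tested genes 19.2% rose, 19.0% fell and 38.3% were called either way. Apoe had the smallest adjusted p, at 4.72, 4.58 and 4.72 log2 CPM in panobinostat libraries, against 5.37, 5.32 and 5.44 in untreated libraries (log2 fold change -0.70, SE 0.10, adjusted p in limma = 0.00165). The galectin gene Lgals3 (-0.88, SE 0.14), the complement gene C1qa (-0.55, SE 0.12) and the cathepsin gene Ctss (-0.45, SE 0.10) fell too. Ctsd was called at -0.30 (SE 0.10), a call kept when untreated library 1 was left out and lost without any of the other libraries. Tyrobp, the adaptor of many myeloid receptors, stood at -0.46 (SE 0.19, adjusted p = 0.0975) with no overlap between the groups. Plac8 rose (1.67, SE 0.29). With sample weights this list held 12 calls instead of 7.

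Transcription factor genes of the myeloid lineage changed in both directions. Of 15 tested 2 rose and 4 fell, with a median change of -0.43. Over all tested genes 38.3% were called either way, so the share of this list that was called was near the background. Spi1, which encodes PU.1, stood at 2.58, 2.33 and 2.02 log2 CPM in panobinostat libraries, against 3.54, 3.7 and 3.64 in untreated libraries (log2 fold change -1.32, SE 0.19, adjusted p in limma = 0.00185). Gfi1, a repressor needed for neutrophil development (-1.26, SE 0.14), and the ETS factor gene Fli1 (-0.56, SE 0.11) fell as well.

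Of the C/EBP genes, Cebpa and Cebpb were tested and not called. Cebpb stood at -0.996 (SE 0.39, adjusted p = 0.0761), and was called without panobinostat library 1 (-1.31), while it was -0.50 without panobinostat library 3. Cebpa stood at -0.47 (SE 0.28). Cebpe, the factor of secondary granules, was under the filter and not tested, at -0.79, -0.74 and -1.22 log2 CPM in panobinostat libraries, against 0.81, 0.69 and 0.51 in untreated libraries, with no overlap. The rise of the orphan receptor gene Nr4a1 (2.00, SE 0.22) belongs with these only by the list. T cells also express Gfi1, Fli1, Runx1 (0.20, SE 0.12), Ets2 (-0.08, SE 0.12) and Nr4a1, and Irf8 (-0.07, SE 0.12) is made by several lineages, so these genes do not mark myeloid cells alone.

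**Figure D4:**
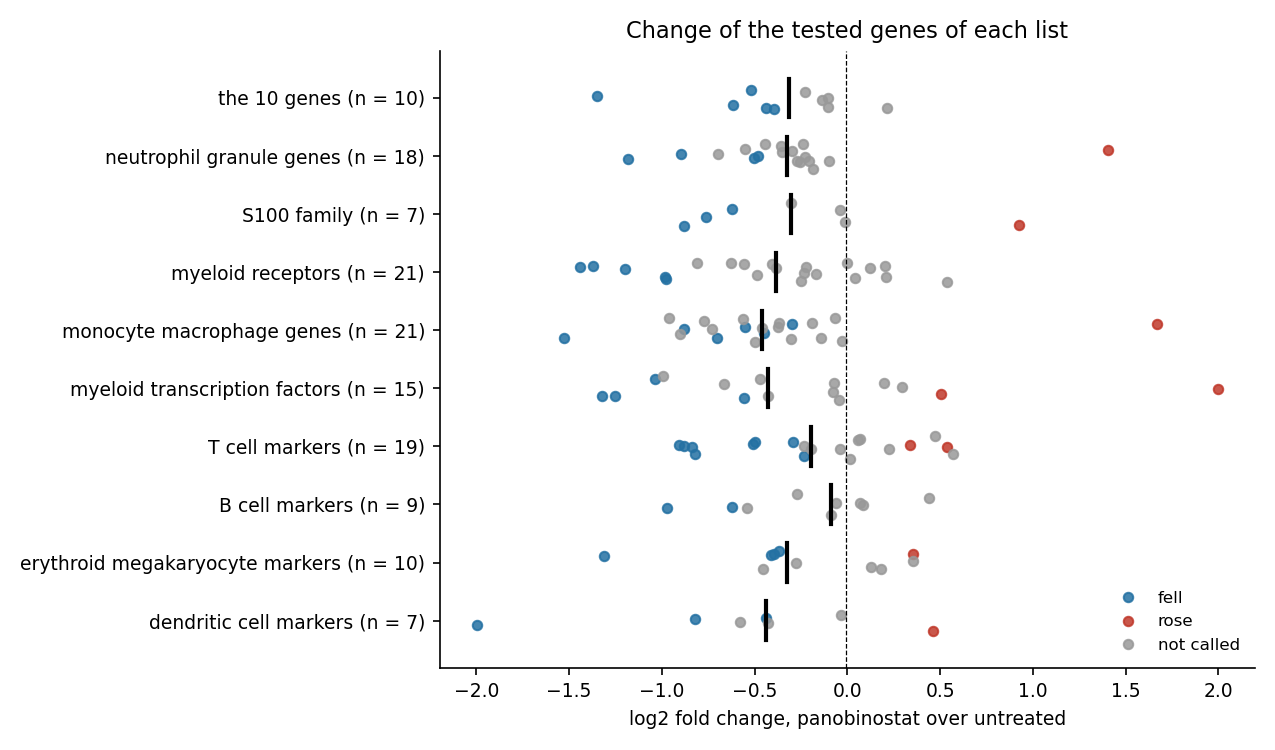
Log2 fold change of panobinostat over untreated libraries for the tested genes of each list, coloured by call, with the list median as a black bar and the median of all tested genes dashed. The medians of the 10 genes and of the 5 other myeloid lists, the S100 family included, lie between -0.46 and -0.31. Each has falls and, except for the 10 genes and the receptors, at least 1 rise. The medians of the dendritic cell list (-0.44) and of the erythroid and megakaryocyte list (-0.32) lie in the same range, so it is not particular to myeloid lists. Those of the T cell (-0.19) and B cell (-0.09) lists lie outside it.

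The labelled cell type was checked on 19 T cell genes, all measured. Cd3d stood at 8.18 ± 0.04 log2 CPM in panobinostat and 8.69 ± 0.10 in untreated libraries, and Lck at 8.27 ± 0.10 in panobinostat and 9.09 ± 0.05 in untreated libraries (SD, n = 3 each). Cd8a averaged 5.96 log2 CPM in panobinostat and 5.91 in untreated libraries, and Cd4 averaged 2.39 in panobinostat and 1.82 in untreated libraries. Summed, the list held between 1980 and 2039 CPM in panobinostat libraries, against between 2462 and 2638 CPM in untreated libraries. In it 2 genes rose and 8 fell (6 calls in all without panobinostat library 3), with a median change of -0.19. The shares over all tested genes, 19.2% that rose and 19.0% that fell, apply to this list and to the lists below.

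Genes of other blood cells were present beside them. The erythroid and megakaryocyte list, led by globin genes, had values for 12 of 12 and summed to between 6342 and 6743 CPM in panobinostat libraries, against between 6739 and 7999.7 CPM in untreated libraries. Of its 10 tested genes 1 rose and 4 fell, with the smallest adjusted p for the factor gene Klf1 (-1.31, SE 0.16). The alpha globin genes fell (-0.37 for Hba-a1, -0.40 for Hba-a2) and Hbb-bs rose (0.35), but each of these calls was lost without at least 4 of the 6 libraries in turn, and near-identical copies share reads. The list's 5 calls came to 3 without panobinostat library 1, 1 without panobinostat library 2 or 3, 2 without untreated library 2 and 1 without untreated library 3.

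B cell genes (9 of 10 with values) summed to between 388 and 436 CPM in panobinostat and between 379 and 427 CPM in untreated libraries. Most of that sum was Ighm, with 296 to 338 CPM in panobinostat and 274 to 319 CPM in untreated libraries. The sum thus says little of the other B cell genes. In this list 2 genes fell (1 without panobinostat library 1 or 2). Dendritic cell genes (7 of 10) summed to between 128 and 151 CPM in panobinostat and between 154 and 173 CPM in untreated libraries, with 1 that rose and 3 that fell (2 calls in all without panobinostat library 3). Genes of mast cells, basophils and eosinophils (3 of 11), of natural killer cells (2 of 9) and of stroma (1 of 8) summed to at most 18.1 CPM in any library, with 0 calls in limma. At an unadjusted p under 0.05, 1 of their 5 tested genes was higher, the stromal gene Pdgfrb, and 0 were lower. Pdgfrb was called without untreated library 1 (log2 fold change 1.38). The myeloid receptors summed to between 101 and 105 CPM in panobinostat and between 128 and 153 CPM in untreated libraries. The monocyte and macrophage genes summed to between 497 and 533 CPM in panobinostat and between 543 and 606 CPM in untreated libraries. The part of other cells in the levels or changes of the 10 genes was not tested.

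**Figure D5:**
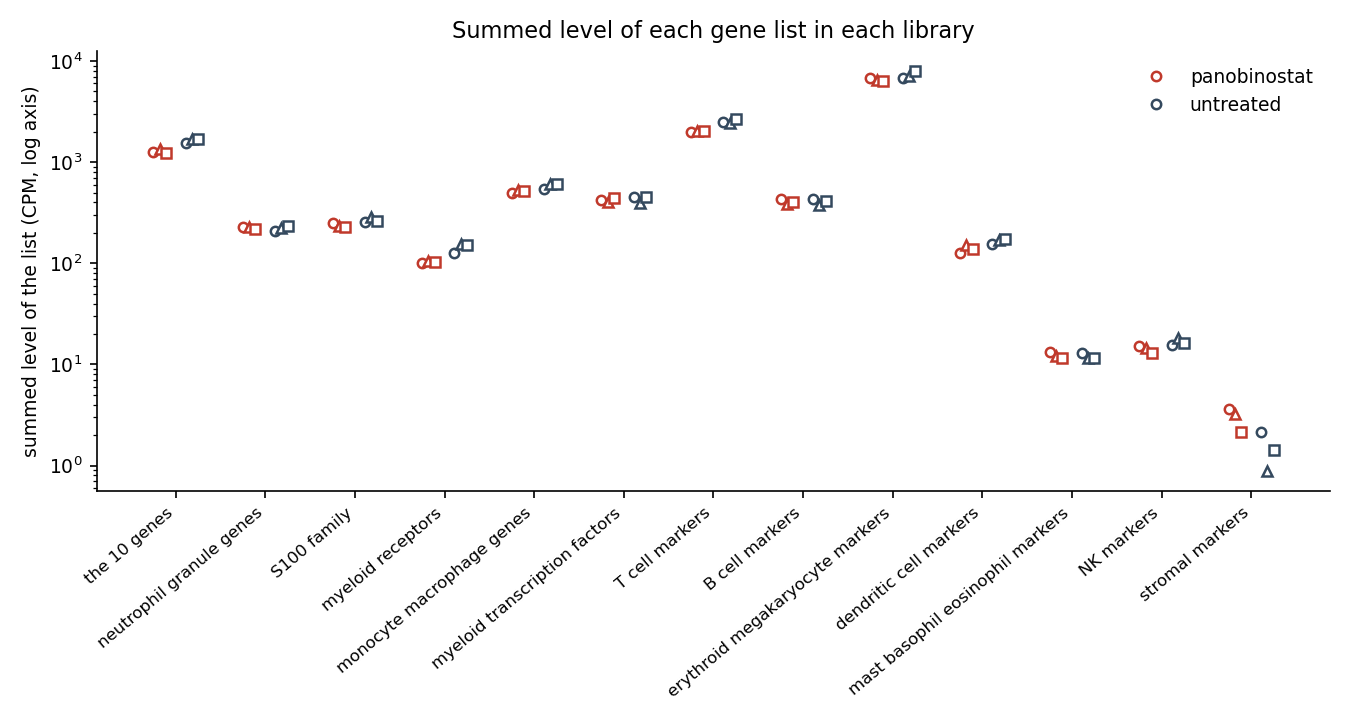
Summed level in CPM, on a log axis, of the genes of each list in each library, panobinostat left and untreated right, with circles, triangles and squares for libraries 1 to 3. The 10 genes (1233 to 1349 CPM in panobinostat against 1530.2 to 1701 CPM in untreated libraries) and the S100 family show no overlap between the groups. The same holds for the myeloid receptors, the monocyte and macrophage genes and the T cell, dendritic and natural killer cell markers. The other lists overlap. Of single tested genes 51.4% had no overlap in either direction. A sum leans on its highest genes, as on Cstb among granule genes and Ighm among B cell genes. Among transcription factors Nr4a1 held 60.9 to 89.2 CPM in panobinostat and 15.5 to 25.9 CPM in untreated libraries. Overlap of sums thus does not sort the lists into changed and unchanged.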

How the data were processed

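The authors deposited 1 table of log2 values, which were inferred from the values to be log2 CPM, quantile normalized between libraries: powers of 2 summed to between 994114 and 994182 per library. Such scaling hides a shift of all genes one way. Cutadapt 1.9, HISAT2 2.1.0, featureCounts (Subread 1.5.0) and limma, with build mm10, are named in the submitters' processing notes; annotation, strand setting and filters are not given in the sources used here. Per the labels, libraries were made from 100 ng of total RNA with the QuantSeq 3' kit.

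The 12554 of 13185 genes whose log2 values averaged 0 or more were fitted with limma 3.58.1 in R 4.3.3 (lmFit, eBayes with trend), without a pseudocount, and p-values were adjusted over all of them. Intervals are limma's, without adjustment. Differences within libraries were compared by exact permutation. Library numbers come from the table's column names. The script was checked on simulated data. Depth was estimated from ties at 200 steps between distinct values, and PCR copies were not told apart. Sequences are from RefSeq (GRCm38.p6) and positions from GENCODE M21. Python 3.11.15, pandas 2.3.3 and matplotlib 3.10.9 were used.

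The members and the 12 gene lists beside them were chosen with earlier results of these data known. Named are all members, up to 5 called genes with the smallest adjusted p and the 3 highest of each myeloid list, set defining markers, and the 3 genes most correlated with each member; other lists are given by counts, sums and a few of these genes. One gene that this rule names is not reported here. Alternatives were other filters, scalings, spread models, a pseudocount, a replicate block, a stricter threshold and each library left out.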

Additional observations from a re-analysis of the deposited data

How the results depend on the processing

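S100a8, Lyz2, Mpo and Ngp kept their direction and their call in all 16 alternatives, and S100a9 and Prtn3 were called in none. The number of the 10 genes called was 5 under every other filter, scaling, spread model and pseudocount, 4 at a threshold of 0.01, where the Csf1r call was lost (-1.35), and between 4 and 6 with 1 library left out. At that threshold 2513 genes were called in all, against 4806, and between 3299 and 5233 with 1 library left out. Over the fits with 1 library left out, Csf1r ran from -1.67 to -1.0, Elane from -0.29 to 0.0319, Ctsg from -0.24 to 0.14 and Camp from -0.0186 to 0.49, so that the sign of the last 3 turned in some. The gap between the 9 granule and alarmin genes and Csf1r ran from 0.45 to 1.11 in these fits and was 0.70 with a pseudocount of 1; scaling a whole library cannot move it. The cause of these shifts was not tested. At the threshold of 0.01 the lists held fewer calls as well, 2 of 5 among granule genes, 2 of 5 among myeloid receptors, 4 of 7 among monocyte and macrophage genes and 0 of 2 among B cell genes. With the replicate block 4148 genes and 5 of the 10 were called, and 2 calls in place of 4 in the S100 family and in place of 5 among erythroid genes. The Csf1r estimate of -1.35 had an SE of 0.16 with the block, against 0.36 without it. Deviations from the group means correlated at -0.04, 0.10 and -0.01 between same-numbered libraries, and at -0.16 to 0.15 between the others. Whether same-numbered libraries were paired is not stated, and these correlations cannot decide it, as the other pairs spread as widely. The fewest reads stood behind Ctsg (about 11 to 26 per library) and Elane (about 27 to 37), and the part of depth in their missing calls was not tested.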
